A study of Mus musculus with 28 samples.

Results

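The TAM genes encode the receptor tyrosine kinases Tyro3, Axl and Mertk and their secreted ligands Gas6 and protein S. The 5 genes examined here, Axl, Mertk, Tyro3, Gas6 and Pros1, were taken by name from the 54532 genes of the count table. Counts were available for murine bone marrow-derived macrophages (BMDMs) incubated with plasma-derived von Willebrand factor (pd-VWF, 10 µg/ml), with LPS (100 ng/ml) or with PBS as control. Each incubation lasted 3.5 h or 16 h. At each time there were 5 control, 5 VWF and 4 LPS cultures, 28 in all. The cells were grown from the marrow of C57/B6JB mice aged 8 to 12 weeks with the growth factor M-CSF, and all groups received calcium-supplemented medium. That age is from the paper's cell culture section, whereas its methods open with a lower age range for all murine experiments. No gene was deleted or introduced in any group. Replicates are labelled as biological, but which animals they came from is not stated, so the p-values measure the spread between these cultures. The question was how the expression of each receptor and ligand differed between VWF, LPS and control cultures at each time.

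As background, TAM receptors do not bind the phosphatidylserine of dying cells directly. Gas6 and protein S bridge them: a vitamin K-dependent, gamma-carboxylated domain holds the lipid and the other end of the ligand binds the receptor. In macrophages Mertk is known for the uptake of apoptotic cells at rest, Axl for its induction by interferon and inflammatory signals, and both for restraining innate responses through the interferon receptor and the SOCS proteins. Gas6 binds Axl most tightly, whereas protein S is a ligand of Mertk and Tyro3 and also circulates as an anticoagulant cofactor.

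The library totals ranged from 41131209 to 77699206 counts, with a median of 52986574. The macrophage identity of the cultures was checked with 8 markers (Adgre1, Csf1r, Cd68, Itgam, Fcgr1, Lyz2, Spi1 and Cd14), and 0 of them were below 1 TPM (transcripts scaled for exon length and library total) in any group. There were 3 cultures that stood apart within their 16 h groups in the summed TPM of these markers. In control replicate 5 it was 8062, against 31465 to 37323 in the other control cultures. In VWF replicate 4 it was 29091, against 44177 to 51227, and in LPS replicate 4 it was 9752, against 16815 to 19709. Each result at 16 h was therefore also computed without these 3 cultures, a step chosen after the data were seen. A low sum was also found at 3.5 h, in LPS replicate 1, at 11119 against 18209 to 18825 in the other LPS cultures. That culture was left out only in the runs that left out single cultures. Ly6g and Mpo of the neutrophil markers, all lymphocyte markers but Cd79b and all 5 erythroid and mast cell markers stayed below 1 TPM in every group. The neutrophil markers S100a8, S100a9 and Camp and the lymphocyte marker Cd79b reached 1 TPM in every group, and Elane and Ltf in some groups. The summed TPM of the 7 neutrophil markers spanned 17.8 to 124, and that of the 6 lymphocyte markers 1.59 to 21.2. The summed TPM of 7 stromal markers spanned 4.34 to 154 over the cultures and was highest in replicate 1 in 5 of 6 groups. That of 5 dendritic cell markers was 0.616 to 1 in control cultures at 3.5 h, 8.3 to 10.2 with VWF and 10.4 to 12 with LPS. At 16 h it was 0.347 to 0.843, 0.561 to 1.68 and 7.41 to 12.4 in the same order. Of these 5 markers only Xcr1 reached 1 TPM in LPS cultures at either time and in VWF cultures at 16 h. In VWF cultures at 3.5 h Xcr1 and Zbtb46 did, and Flt3, Clec9a and Siglech stayed below 1 TPM in every group. The 4 endothelial markers reached 8.53 to 17.2 TPM in LPS cultures at 16 h, carried by Kdr, and stayed between 0.168 and 4.64 elsewhere. The part of these markers in the results below was not tested.

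In the GENCODE annotation of GRCm38, Axl (ENSMUSG00000002602) lies on the minus strand at chr7:25757273-25788705, with 5033 bases of exon. Mertk (ENSMUSG00000014361) lies on the plus strand at chr2:128698956-128802894, with 4336 bases of exon. Tyro3 (ENSMUSG00000027298) lies on the same chromosome and strand at chr2:119797733-119818104, with 6198 bases of exon. Gas6 (ENSMUSG00000031451) lies on the minus strand at chr8:13465374-13494490, with 2548 bases of exon, of which 1.33% overlap Tmem255b on the opposite strand. Pros1 (ENSMUSG00000022912) lies on the plus strand at chr16:62854307-62929346, with 4088 bases of exon.

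The 250 bases before the RefSeq start of the 4 genes that could be tested at the expression minimum are shown because these genes differed in direction under the same stimulus. They read 5′ to 3′ on the gene's strand, in GRCm38.p6, at chr7:25788734-25788983 for Axl, chr2:128698665-128698914 for Mertk, chr8:13494536-13494785 for Gas6 and chr16:62854057-62854306 for Pros1. Capitals mark every match to a searched motif.
Axl: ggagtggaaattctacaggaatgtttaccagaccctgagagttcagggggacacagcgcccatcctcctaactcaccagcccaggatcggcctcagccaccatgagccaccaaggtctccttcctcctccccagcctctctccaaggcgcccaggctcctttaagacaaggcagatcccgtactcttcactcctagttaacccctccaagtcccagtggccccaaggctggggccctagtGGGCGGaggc
Mertk: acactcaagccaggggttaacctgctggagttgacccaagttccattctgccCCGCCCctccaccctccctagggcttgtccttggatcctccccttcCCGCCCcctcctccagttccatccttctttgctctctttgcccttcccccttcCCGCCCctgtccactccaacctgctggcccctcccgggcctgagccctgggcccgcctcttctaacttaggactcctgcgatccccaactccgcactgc
Gas6: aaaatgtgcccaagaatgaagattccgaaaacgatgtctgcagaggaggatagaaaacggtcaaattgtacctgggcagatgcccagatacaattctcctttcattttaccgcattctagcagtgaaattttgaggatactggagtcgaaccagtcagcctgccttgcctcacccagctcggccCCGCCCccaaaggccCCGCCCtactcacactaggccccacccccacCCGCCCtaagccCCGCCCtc
Pros1: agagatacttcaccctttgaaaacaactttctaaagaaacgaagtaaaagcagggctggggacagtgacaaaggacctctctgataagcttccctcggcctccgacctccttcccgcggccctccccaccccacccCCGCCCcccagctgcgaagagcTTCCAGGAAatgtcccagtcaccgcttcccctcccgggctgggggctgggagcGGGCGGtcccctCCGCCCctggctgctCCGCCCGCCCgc
The search covered both strands for 5 motifs, namely the interferon-type ISRE (GAAA, any 2 bases and GAAA again), the STAT-type GAS element (TTC, any 3 bases and GAA), the AP-1 element TGANTCA, the NF-kB-type element (GGG, any 2 bases and TTTCC) and the GC box GGGCGG. Of 32851 mouse promoter windows of the same length, 2.98% held the ISRE, 7.02% the GAS element, 6.75% the AP-1 element, 1.41% the NF-kB-type element and 32.7% a GC box. GC boxes were found in all 5 members, with 1 in Axl, 3 in Mertk, 3 in Tyro3, 4 in Gas6 and 5 in Pros1, where the 2 nearest to the start overlap by 2 bases. The capitals at -92 to -84 of Pros1, TTCCAGGAA, are a GAS match, and the pattern is met on either strand at these bases. The ISRE, AP-1 and NF-kB-type letters were not found in these windows. The GC content of the windows was 60% for Axl, 63.6% for Mertk, 54.8% for Gas6 and 64.4% for Pros1, and the median of all windows was 52.4%.

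Compared per exon length in TPM, the group means of the receptors followed the same order in all 6 groups, with Axl above Mertk and Mertk far above Tyro3. In control cultures at 3.5 h the levels were 99.5 ± 37.5 TPM for Axl, 61.5 ± 29.1 for Mertk and 0.617 ± 0.214 for Tyro3 (SD, n = 5). Among the ligands the mean of Gas6 stood above that of Pros1 in every group, at 599 ± 60.1 against 35.7 ± 4.32 TPM in the same cultures. The receptors summed to 162 ± 66.5 TPM in control cultures at 3.5 h, 137 ± 27.4 with VWF and 125 ± 19.1 with LPS. At 16 h they summed to 98.3 ± 30.7, 91 ± 12.6 and 196 ± 39 TPM in the same order. The ligands summed to 635 ± 61.7, 401 ± 22.7 and 329 ± 40.9 TPM at 3.5 h, and to 211 ± 53.5, 123 ± 35.3 and 32.2 ± 7.27 TPM at 16 h. By group mean, summed ligand transcript thus exceeded summed receptor transcript everywhere except with LPS at 16 h.

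All values that follow for single genes are CPM (counts scaled to a common library total), adjusted by edgeR's TMM factors over the 28 cultures, and serve to compare cultures for 1 gene. Fold changes are log2 values from edgeR's quasi-likelihood fit of the groups compared, with the standard error (SE), and p-values are Benjamini-Hochberg adjusted over all genes tested in that comparison. A gene was called, and is said to have risen or fallen, at an adjusted p under 0.05 and an absolute log2 fold change above 1. A gene was tested if it reached 10 TPM in at least 1 culture of the comparison. Of the 5 genes 4 reached this and Tyro3 did not, so Tyro3 is given from the fit without that minimum. As RNA was taken from whole cultures, fewer cells expressing a gene and less of its RNA per cell cannot be told apart. The VWF and LPS comparisons of each time share their control cultures, and their values are set side by side without a test of their likeness.

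**Figure D1:**
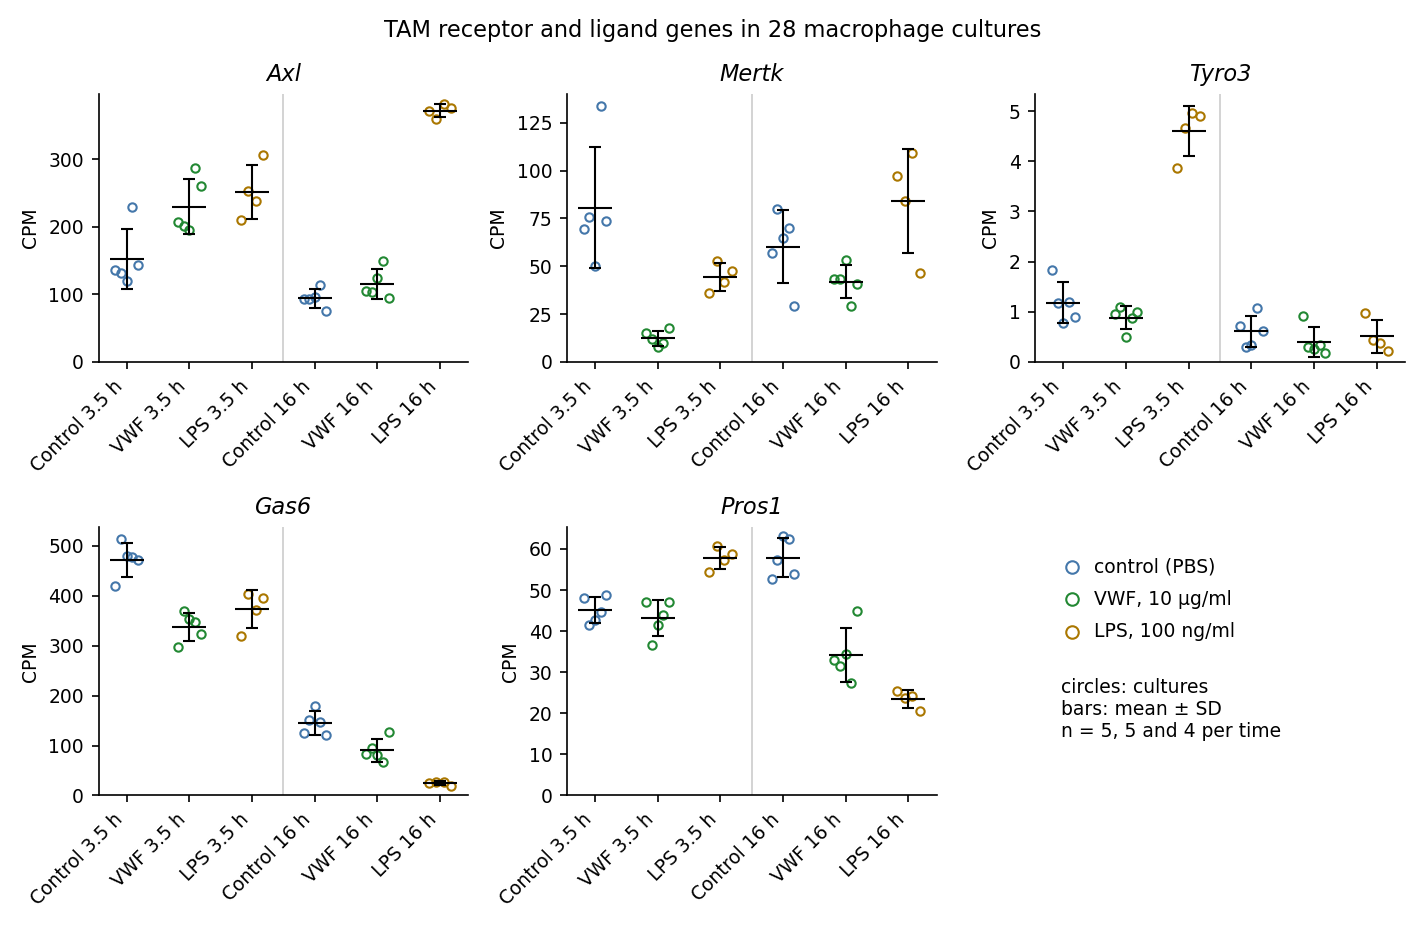
CPM (linear axes from 0, scaled by TMM factors) of the 5 TAM genes in the 6 groups, with 1 circle per culture and bars for mean ± SD (n = 5 control, 5 VWF and 4 LPS cultures per time). Mertk in VWF cultures at 3.5 h lay between 8 and 17.5 CPM, below every other culture, Axl in LPS cultures at 16 h between 359 and 382, above every other culture, and Gas6 in LPS cultures at 16 h between 19 and 27.6, below every other culture.

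Mertk was the receptor that fell under VWF. In control cultures at 3.5 h, Mertk was at 69.7, 75.9, 50.1, 134 and 73.7 CPM in replicates 1 to 5. In VWF cultures at 3.5 h it was at 15.1, 11.8, 8, 9.76 and 17.5 CPM, and in the 4 LPS cultures at 36, 52.7, 41.9 and 47.3 CPM. The 5 VWF cultures all lay below the 4 LPS cultures and the 5 control cultures, while 1 control culture, replicate 3, lay within the LPS range. At 16 h, control cultures had 57.1, 79.9, 64.8, 69.8 and 29.5 CPM. VWF cultures had 43.1, 43.4, 53.3, 29.1 and 40.9 CPM at that time, and LPS cultures 97, 84.2, 109 and 46.3 CPM. The 3 groups overlapped at 16 h, and the lowest value of each came from the culture with few macrophage marker transcripts. Ordered by group mean, Mertk ran from LPS at 16 h (84.2 ± 27.2, SD, n = 4) through control at 3.5 h (80.7 ± 31.4, n = 5), control at 16 h (60.2 ± 19), LPS at 3.5 h (44.5 ± 7.17) and VWF at 16 h (42 ± 8.65) to VWF at 3.5 h (12.4 ± 3.87). Only the last step separated neighbours whose cultures did not overlap, and the highest group mean was 6.77 times the lowest.

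With VWF at 3.5 h, Mertk fell by 2.67 on the log2 scale (SE 0.29, 6.37-fold, edgeR adjusted p = 1.39e-05). It was the 1 member called of 4 tested in that comparison, in which 14.7% of all 8200 genes tested were called. With LPS at 3.5 h, Mertk differed from control by -0.83 (SE 0.24, adjusted p = 0.00987), short of the fold threshold. Of the 4 members 0 were called in the LPS comparison at 3.5 h by edgeR and 0 by DESeq2, against 24.5% of all genes. All 4 had an unadjusted and an adjusted p under 0.05 with each tool. At that adjusted p alone, 5384 of the 8190 genes tested passed with edgeR and 5639 with DESeq2. Under scaling by library totals the LPS difference was -1.38 and Mertk was called. With the treatments set against each other, Mertk was lower with VWF than with LPS, at -1.81 (SE 0.22, adjusted p = 6.76e-05). Mertk was again the 1 member called of 4, against 11.4% of all genes in VWF against LPS at 3.5 h.

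At 16 h the Mertk difference between VWF and control was -0.53 (SE 0.25, 95% interval -1.03 to -0.04, adjusted p = 0.158). Its unadjusted edgeR p was 0.0611, so the interval leaves out 0 where the test does not. None of the members was called there (0 of 4 by edgeR and 0 by DESeq2), against 8.71% of all genes. An unadjusted p under 0.05 was found for 2 members with edgeR and 3 with DESeq2, and an adjusted one for 2 with each. At that adjusted p alone, 2163 of the 7798 genes tested passed with edgeR and 2615 with DESeq2. Without the 3 cultures low in macrophage markers, the Mertk difference was -0.58 and its adjusted p 0.00207, still under the fold threshold. With adjusted p-values of 0.00534 to 0.322 as single cultures were left out, the evidence at 16 h depended on which cultures entered. With LPS at 16 h the Mertk estimate was 0.52 (SE 0.31, 95% interval -0.09 to 1.12, adjusted p = 0.187), and it became -0.05 when libraries were scaled by their totals alone. Without the 3 cultures the LPS estimate was 0.55 with an edgeR adjusted p of 0.00294, still under the fold threshold. Here too the evidence depended on which cultures entered. The difference between VWF and control was less negative at 16 h than at 3.5 h, by 2.18 on the log2 scale (SE 0.39, edgeR interaction, adjusted p = 0.000198). Without the 3 cultures that difference was 2.07. Mertk was the 1 member of 4 called in this interaction, against 13.5% of all genes. The LPS effect on Mertk also changed with time, by 1.38 (SE 0.42, adjusted p = 0.0126), and the difference between VWF and LPS shifted by 0.79 (SE 0.35, 95% interval 0.10 to 1.48, adjusted p = 0.0673).

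Within the VWF cultures, Mertk rose between 3.5 h and 16 h by 1.76 (SE 0.23, 3.4-fold, edgeR adjusted p = 3.38e-05), and the cultures of the 2 times did not overlap. Between the control cultures of the 2 times, it differed by -0.42 (SE 0.29, adjusted p = 0.264). In LPS cultures it was higher at 16 h by 0.95 (SE 0.25, adjusted p = 0.00902), and leaving out LPS replicate 4 at 16 h took this to 1.15, past the fold threshold, as did leaving out LPS replicate 2 at 3.5 h, to 1.03. Set against LPS at 16 h, VWF cultures had less Mertk by 1.00 on the log2 scale (SE 0.25, edgeR adjusted p = 0.00585), at the fold threshold itself and with overlapping cultures. Same-numbered VWF and LPS cultures deviated together at 16 h, and with the replicate number as a block the estimate was -0.96, below the threshold. Scaling by library totals gave -0.56, and leaving out single cultures gave -1.20 to -0.86. Without the 3 cultures low in macrophage markers the estimate was -1.08 (edgeR adjusted p = 6.3e-05) and the call stood. The overlap came from LPS replicate 4 at 16 h, at 46.3 CPM. The loss of the call followed from leaving out VWF replicate 4 (-0.88) or 5 (-0.98) or LPS replicate 1 (-0.93), 2 or 3 (-0.86).

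Axl was the most abundant receptor, and its level was highest under LPS at 16 h. In control cultures at 3.5 h, Axl was at 136, 132, 120, 230 and 144 CPM in replicates 1 to 5. In VWF cultures it was at 207, 201, 195, 287 and 261 CPM, and in LPS cultures at 210, 253, 238 and 306 CPM. Apart from control replicate 4, the control cultures all lay below the VWF and LPS cultures, which overlapped each other. At 16 h, control cultures had 92.9, 92.8, 96.6, 114 and 75.5 CPM. VWF cultures had 105, 104, 125, 150 and 94.9 CPM, overlapping the controls, and LPS cultures had 371, 359, 382 and 376 CPM. The 4 LPS cultures at 16 h were alike, with a coefficient of variation of 2.55%, and all stood above every other culture of the study. By group mean the order was LPS at 16 h (372 ± 9.49, SD, n = 4), LPS at 3.5 h (252 ± 40.2), VWF at 3.5 h (230 ± 41.3, n = 5), control at 3.5 h (152 ± 44.3), VWF at 16 h (116 ± 22.1) and control at 16 h (94.4 ± 13.9). Only the first step in this order was free of overlap, and the ends differed 3.94-fold. Replicate 4 had the highest Axl of its group in 5 of 6 groups.

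At 3.5 h Axl was higher than control by 0.62 with VWF (SE 0.18, 1.53-fold, edgeR adjusted p = 0.016) and by 0.75 with LPS (SE 0.18, 1.68-fold, adjusted p = 0.00373). Both were under the fold threshold. Between VWF and LPS the Axl estimate was -0.10 (SE 0.14, 95% interval -0.39 to 0.18), with adjusted p = 0.561, and it turned to 0.20 under scaling by library totals. At 16 h Axl rose with LPS by 2.02 (SE 0.12, 4.04-fold, adjusted p = 5.91e-07), whereas with VWF the difference was 0.28 (SE 0.15, 95% interval -0.01 to 0.57, adjusted p = 0.2). In the LPS comparison at 16 h, 3 of 4 members were called, 1 higher and 2 lower, against 27.6% of all genes. Axl was lower with VWF than with LPS at 16 h by 1.68 on the log2 scale (SE 0.13, adjusted p = 2.71e-06), and here too 3 of 4 members were called, 1 higher and 2 lower, against 25.5% of all genes. Without the 3 cultures low in macrophage markers, the Axl values at 16 h were 1.94 for LPS against control, 0.12 for VWF against control and -1.77 for VWF against LPS, with 3, 0 and 3 members called.

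The Axl response to LPS grew with time. The LPS effect was larger at 16 h than at 3.5 h by 1.29 (SE 0.24, edgeR interaction, adjusted p = 0.00032), a comparison in which 4 of 4 members were called, 2 higher and 2 lower, against 26.3% of all genes. The VWF effect at 16 h differed from that at 3.5 h by -0.30 (SE 0.24, 95% interval -0.78 to 0.18, adjusted p = 0.412). The difference between VWF and LPS itself shifted by -1.60 from 3.5 h to 16 h (SE 0.21, adjusted p = 5.79e-06). In that last comparison 2 of 4 members were called, 1 higher and 1 lower, against 25% of all genes. Within the LPS cultures, Axl was higher at 16 h than at 3.5 h by 0.59 (SE 0.12, adjusted p = 0.00193). In control cultures it was lower at 16 h by 0.69 on the log2 scale (SE 0.18, adjusted p = 0.0121). In VWF cultures it was lower by 0.99 (SE 0.15, adjusted p = 0.000116), just under the fold threshold, which it passed in DESeq2, without the 10 TPM minimum (-1.04) and without VWF replicate 4 at 16 h (-1.10).

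Tyro3, the receptor best known from the nervous system, was close to absent except with LPS at 3.5 h. In control cultures at 3.5 h it was at 1.83, 1.18, 0.782, 1.2 and 0.897 CPM, from 43 to 104 counts per culture. VWF cultures at 3.5 h had 0.959, 1.1, 0.496, 0.873 and 0.99 CPM, and LPS cultures 3.87, 4.66, 4.96 and 4.9 CPM, from 151 to 193 counts. The LPS cultures thus all lay above every other culture, at 1.26 to 1.64 TPM, a low level on the length-scaled measure. At 16 h, control cultures had 0.714, 0.294, 0.342, 1.07 and 0.619 CPM. VWF cultures had 0.912, 0.296, 0.254, 0.337 and 0.183 CPM at 16 h, and LPS cultures 0.981, 0.441, 0.384 and 0.227 CPM. These values rest on as few as 9 counts, and the 16 h groups overlapped. Replicate 1, which had the most stromal marker transcript in 5 of 6 groups, had the most Tyro3 in 3 of 6, and the part of stromal cells in Tyro3 was not tested.

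Tyro3 rose with LPS at 3.5 h by 2.02 (SE 0.25, 4.06-fold, edgeR without a minimum, adjusted p = 2.55e-07). The VWF estimate at 3.5 h was -0.35 (SE 0.29, 95% interval -0.91 to 0.22, adjusted p = 0.441), and VWF and LPS cultures differed by -2.40 (SE 0.24, adjusted p = 3.42e-08). By 16 h Tyro3 in LPS cultures had fallen by 3.17 on the log2 scale from its 3.5 h level (SE 0.38, adjusted p = 5.38e-06). Its LPS effect was smaller at 16 h than at 3.5 h by 2.20 (edgeR interaction -2.20, SE 0.56, adjusted p = 0.00572), and the difference between VWF and LPS shifted by 2.03 (SE 0.56, adjusted p = 0.00981). In VWF cultures the fall from 3.5 h to 16 h was 1.20 in size (log2 -1.20, SE 0.39, adjusted p = 0.0245), and leaving out single cultures gave -1.75 to -1.03, with the call lost without VWF replicate 2 or 5 at 3.5 h, without VWF replicate 2, 3 or 5 at 16 h or under scaling by library totals (-1.06). In control cultures the same difference was -1.01 (SE 0.38, adjusted p = 0.0959), called without control replicate 4 (-1.31) or 5 (-1.01) at 16 h. At 16 h the estimates were -0.55 for VWF against control (adjusted p = 0.501), -0.13 for LPS against control (adjusted p = 0.879) and -0.36 for VWF against LPS (adjusted p = 0.641), which was 0.07 under scaling by library totals. The change of the VWF effect with time was -0.20 (SE 0.56, adjusted p = 1).

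Gas6, the bridging ligand shared by all TAM receptors, had the widest range of the members and a lower mean in every treated group than in the control of the same time. In control cultures at 3.5 h, Gas6 was at 420, 513, 479, 478 and 472 CPM in replicates 1 to 5. In VWF cultures it was at 298, 370, 353, 348 and 323 CPM, and in LPS cultures at 320, 404, 372 and 396 CPM. Every treated culture at 3.5 h lay below every control culture of that time, and the VWF and LPS cultures overlapped. At 16 h, control cultures had 125, 152, 180, 147 and 122 CPM. VWF cultures had 83.9, 94.3, 80.4, 66.5 and 127 CPM, of which only replicate 5 lay within the control range, and LPS cultures had 24.1, 27.6, 26.3 and 19 CPM. The LPS cultures at 16 h were the lowest of the study. The order of the group means was control at 3.5 h (472 ± 33.5, SD, n = 5), LPS at 3.5 h (373 ± 37.7, n = 4), VWF at 3.5 h (338 ± 28.2), control at 16 h (145 ± 23.6), VWF at 16 h (90.3 ± 22.6) and LPS at 16 h (24.2 ± 3.78). LPS and VWF at 3.5 h overlapped, as did control and VWF at 16 h, the other neighbours did not, and the ends differed 19.5-fold.

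The Gas6 differences at 3.5 h were under the fold threshold, at -0.46 with VWF (SE 0.08, edgeR adjusted p = 0.000546) and -0.32 with LPS (SE 0.10, adjusted p = 0.0126). Between VWF and LPS at 3.5 h, Gas6 differed by -0.12 (SE 0.10, 95% interval -0.30 to 0.07, adjusted p = 0.315), with the opposite sign, 0.18, under scaling by library totals. At 16 h Gas6 fell with LPS by 2.55 on the log2 scale (SE 0.16, 5.85-fold, adjusted p = 1e-06) and was lower with VWF by 0.70 (SE 0.18, 1.62-fold, adjusted p = 0.0135). VWF cultures at 16 h had 3.74 times the Gas6 of LPS cultures, a log2 difference of 1.90 (SE 0.20, adjusted p = 2.33e-05). Without the 3 cultures low in macrophage markers, the LPS, VWF and VWF against LPS values at 16 h were -2.50, -0.64 and 1.91. The LPS effect deepened by 2.21 between the times (edgeR interaction -2.21, SE 0.17, adjusted p = 2.18e-08), whereas the VWF effect changed by -0.20 (SE 0.19, 95% interval -0.58 to 0.18, adjusted p = 0.498). The VWF to LPS difference shifted by 2.00 (SE 0.21, adjusted p = 4.97e-07).

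Gas6 fell with time in all 3 conditions. In control cultures, the fall from 3.5 h to 16 h was 1.70 in size (log2 -1.70, SE 0.11, 3.25-fold, edgeR adjusted p = 3.63e-06), and it was the 1 member called of 4, against 9.08% of all genes. In VWF cultures it fell by 1.90 on the log2 scale (SE 0.16, adjusted p = 1.07e-06), where 2 of 4 members were called, 1 higher and 1 lower, against 21.4% of all genes, and DESeq2 called 3. In LPS cultures it fell by 3.92 (SE 0.14, 15.1-fold, adjusted p = 2.48e-07), with 2 of 4 members called, both lower, against 28.1% of all genes. Without the cultures low in macrophage markers, the count of members called was 1 in control, 3 in VWF and 3 in LPS cultures, the additions being Axl in VWF (-1.10) and Mertk in LPS (1.15).

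Pros1, which encodes protein S, varied less than the other members, 2.47-fold between the highest and the lowest group mean. In control cultures at 3.5 h it was at 48, 41.6, 42.6, 44.6 and 48.7 CPM. VWF cultures at 3.5 h had 47.1, 36.5, 41.6, 44 and 47.1 CPM, within reach of the controls, and LPS cultures had 54.3, 60.8, 57.4 and 58.8 CPM, all above both. At 16 h, control cultures had 52.7, 57.4, 63.2, 62.5 and 54 CPM. VWF cultures had 32.9, 31.6, 34.4, 27.4 and 44.9 CPM, and LPS cultures 25.4, 23.7, 24.3 and 20.5 CPM. At that time all VWF cultures lay below all controls and above all LPS cultures. In the order of group means, control at 16 h (57.9 ± 4.76, SD, n = 5) and LPS at 3.5 h (57.8 ± 2.73, n = 4) led and overlapped. Control at 3.5 h (45.1 ± 3.17), VWF at 3.5 h (43.2 ± 4.43) and VWF at 16 h (34.2 ± 6.51) followed with overlap between neighbours, and LPS at 16 h (23.5 ± 2.11) was lowest and apart.

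At 3.5 h the Pros1 difference was -0.04 with VWF (SE 0.09, 95% interval -0.22 to 0.13, edgeR adjusted p = 0.763) and 0.38 with LPS (SE 0.08, adjusted p = 0.00155), and the LPS value turned to -0.16 under scaling by library totals, a scaling that moved the median of all genes in that comparison by -0.55. VWF cultures had less Pros1 than LPS cultures, with a log2 difference of -0.40 (SE 0.09, adjusted p = 0.00537). At 16 h Pros1 fell with LPS by 1.27 on the log2 scale (SE 0.10, 2.41-fold, adjusted p = 4.17e-06). With VWF it was lower by 0.77 (SE 0.13, 1.7-fold, adjusted p = 0.00116), short of the fold threshold. The difference between VWF and LPS at 16 h was 0.55 (SE 0.15, adjusted p = 0.00874), and 1.01 under scaling by library totals. Without the 3 cultures low in macrophage markers, these 3 values were -1.23, -0.71 and 0.57.

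The Pros1 estimate under LPS was above control at 3.5 h, though not under scaling by library totals, and below it at 16 h. The LPS effect went from 0.38 to -1.27, a change of -1.63 (SE 0.12, edgeR interaction, adjusted p = 7.36e-09), which kept its sign under every scaling tried. The VWF effect changed by -0.69 (SE 0.15, adjusted p = 0.00136), and the VWF to LPS difference by 0.92 (SE 0.17, adjusted p = 0.000179), both under the fold threshold. With time Pros1 was higher by 0.36 in control cultures (SE 0.08, adjusted p = 0.00548), lower by 0.33 on the log2 scale in VWF cultures (SE 0.13, adjusted p = 0.0425), and it fell by 1.27 in LPS cultures (SE 0.10, adjusted p = 6.06e-06).

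**Figure D2:**
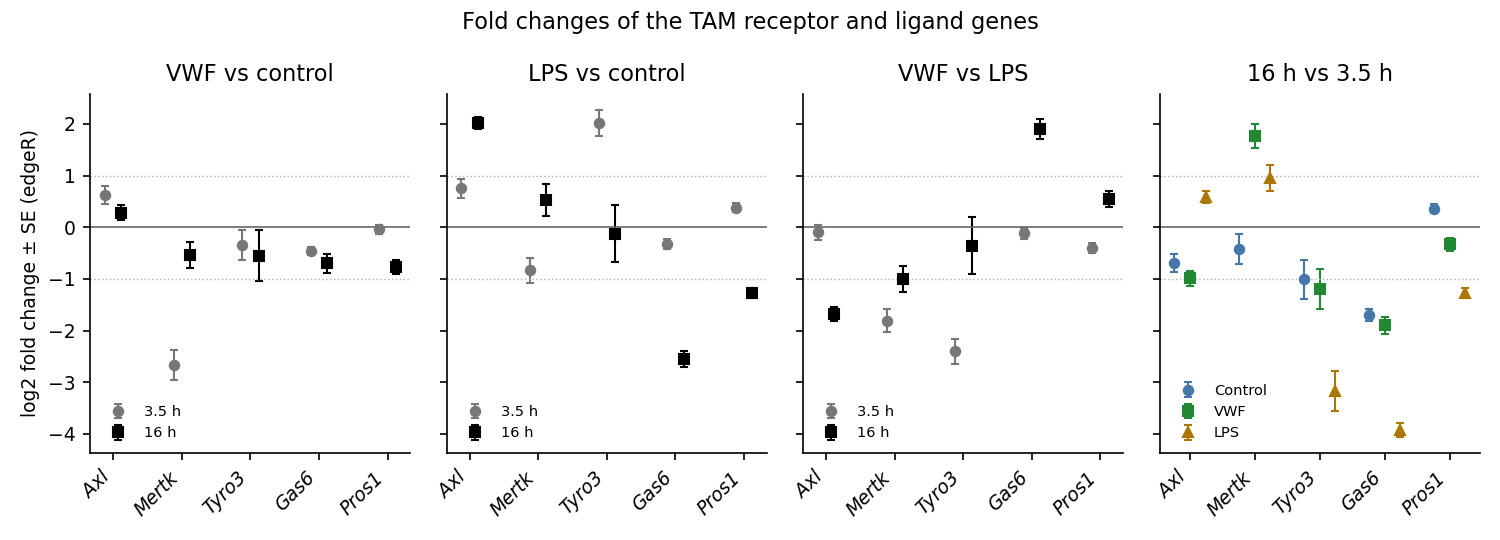
Log2 fold changes ± SE from edgeR for the 5 TAM genes, in panels for VWF against control, LPS against control, VWF against LPS, and 16 h against 3.5 h within each condition, with dotted lines at the fold threshold. Under VWF the largest value was that of Mertk at 3.5 h (-2.67), and under LPS the values past the threshold were Tyro3 at 3.5 h (2.02) and Gas6 (-2.55), Axl (2.02) and Pros1 (-1.27) at 16 h. Scaling by library totals reverses Pros1 in LPS against control and Axl and Gas6 in VWF against LPS at 3.5 h, Mertk in LPS against control at 16 h and Tyro3 in VWF against LPS at 16 h.

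The balance of the receptors was measured within each culture as the log2 ratio of Axl to Mertk TPM, which does not depend on library scaling. At 3.5 h the ratio of Axl to Mertk was 1.68 ± 0.232 in control cultures, 17.1 ± 5.81 with VWF and 4.9 ± 0.596 with LPS. The 3 groups were fully apart, from 1.48 to 2.06, from 11.8 to 25.4 and from 4.13 to 5.57. On the log2 scale VWF exceeded control by 3.30 (exact two-sided permutation test, p = 0.00794, adjusted over 12 ratio tests p = 0.0272) and LPS exceeded control by 1.55 (exact permutation p = 0.0159, adjusted p = 0.0272). VWF also exceeded LPS, by 1.75 (exact permutation p = 0.0159, adjusted p = 0.0272). These are the smallest p-values that 5 against 5 and 5 against 4 cultures can give. In TPM shares, Axl made up 62.2% of the 3 receptors in control cultures, 93.8% with VWF and 81.9% with LPS, and Mertk 37.4%, 5.93% and 16.9%. Tyro3 made up at most 1.39% in any culture.

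At 16 h the ratio of Axl to Mertk was 1.46 ± 0.446 in control, 2.52 ± 1.07 in VWF and 4.24 ± 1.85 in LPS cultures. LPS cultures (3.01 to 6.99) lay above control cultures (1 to 2.2), by 1.50 on the log2 scale (exact permutation p = 0.0159, adjusted p = 0.0272). VWF cultures (2 to 4.44) overlapped the controls, with a log2 difference of 0.76 that missed the threshold after adjustment (exact permutation p = 0.0397, adjusted p = 0.0529). VWF and LPS overlapped too, at -0.74 (exact permutation p = 0.0635, adjusted p = 0.0762). In each of the 3 groups the highest ratio came from the culture low in macrophage markers. Without these cultures the 3 groups did not overlap, and the log2 differences were 0.69 for VWF, 1.39 for LPS and -0.70 for VWF against LPS. For VWF against control, 4 against 4 cultures cannot give an exact permutation p under 0.0286. For the other 2 differences, 4 against 3 cultures cannot give one under 0.0571. With all cultures kept, Axl made up 58.2%, 69.9% and 79.4% of receptor TPM in control, VWF and LPS cultures.

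The ligands changed their balance toward protein S under LPS. At 3.5 h the Gas6 to Pros1 TPM ratio was 16.9 ± 2.22 in control cultures, 12.7 ± 2.4 with VWF and 10.3 ± 0.604 with LPS. The log2 difference from control was -0.42 for VWF (exact permutation p = 0.0317, adjusted p = 0.0476), with overlapping cultures and a call lost when any 1 of 7 of the 10 cultures was left out, and -0.70 for LPS (exact permutation p = 0.0159, adjusted p = 0.0272), without overlap. VWF and LPS differed by 0.29 (exact permutation p = 0.0952, adjusted p = 0.104). At 16 h the ratio was 4.01 ± 0.395 in control, 4.21 ± 0.433 in VWF and 1.65 ± 0.182 in LPS cultures. VWF and control overlapped, with a log2 difference of 0.07 (exact permutation p = 0.46, adjusted p = 0.46). LPS lay below control by 1.28 on the log2 scale (difference -1.28, exact permutation p = 0.0159, adjusted p = 0.0272), and VWF lay above LPS by 1.35 (exact permutation p = 0.0159, adjusted p = 0.0272). Gas6 accounted for 94.3% of ligand TPM in control cultures at 3.5 h and 79.9% at 16 h, for 92.6% and 80.7% with VWF, and for 91.2% and 62.2% with LPS.

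**Figure D3:**
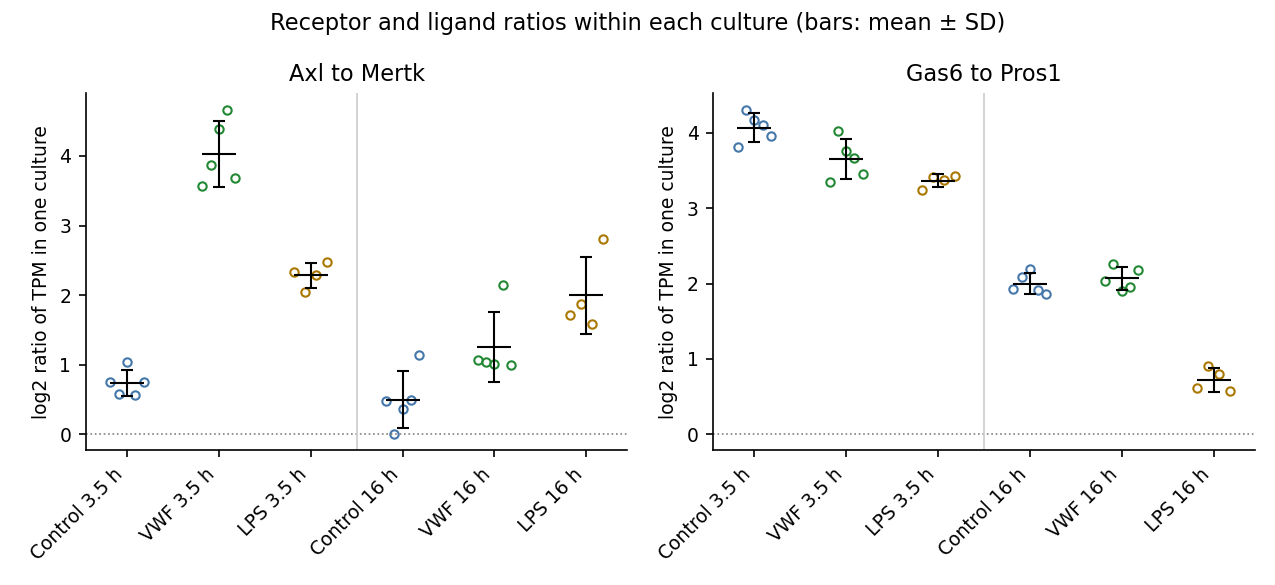
Log2 ratio of TPM within each culture for Axl to Mertk (left) and Gas6 to Pros1 (right), with 1 circle per culture, bars for mean ± SD and the dotted line at equal TPM. At 3.5 h the Axl to Mertk ratio of the VWF cultures (3.56 to 4.66) lay above that of the LPS cultures (2.05 to 2.48), and at 16 h the Gas6 to Pros1 ratio of the LPS cultures (0.57 to 0.90) lay below all others.

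The regulators of Mertk and Axl transcription, a list of 9 nuclear receptors and MAF factors, held several genes that fell with each treatment at 3.5 h. With VWF, 0 of 9 rose and 4 fell, with a median log2 fold change of -0.92. Among these, Nr4a1 fell by 2.62 on the log2 scale (SE 0.23), Pparg fell by 2.02 (SE 0.12) and Rxra, a partner of several of these receptors, fell by 1.10 (SE 0.10). With LPS, 0 of 9 rose and 6 fell (median -1.32), among them Nr4a1 (-3.21, SE 0.27), Rxra (-2.19, SE 0.10) and Ppard (-1.71, SE 0.17). Nr1h3, which encodes the oxysterol receptor LXR alpha, was higher with VWF than with LPS at 3.5 h by 1.51 (SE 0.08), and Rxra by 1.11 (SE 0.12), the 2 called of 7 tested.

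At 16 h the same list was mixed. With VWF, 1 of 8 rose (Nr1h3, 2.56, SE 0.11) and 2 fell (Nr4a1, -4.48, SE 0.27, and Pparg, -2.33, SE 0.23). The Nr4a1 value rests on a low level in VWF cultures at 16 h, 0.462 ± 0.0656 CPM (SD), from at most 42 counts per culture. With LPS, 2 of 9 rose, Nr1h3 (2.46, SE 0.10) and Nr3c1, the glucocorticoid receptor (1.00, SE 0.20), and 1 fell, Pparg (-1.81, SE 0.19). The Nr3c1 call stood at the threshold and was lost under scaling by library totals (0.44) and without control replicate 1 or 5 or LPS replicate 1 or 3 (0.89 to 0.99). Between 3.5 h and 16 h in VWF cultures, 3 of 7 rose, among them Maf (2.04, SE 0.10) and Rxra (1.05, SE 0.09), and Nr3c1 fell (-1.08, SE 0.14). The Nr3c1 call was lost without VWF replicate 4 at 16 h (-0.99), and that of Rxra without VWF replicate 4 at 3.5 h. In LPS cultures, 6 of 9 rose, among them Nr1h3 (2.27, SE 0.10), Ppard (2.17, SE 0.17) and Maf (1.78, SE 0.15).

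**Figure D4:**
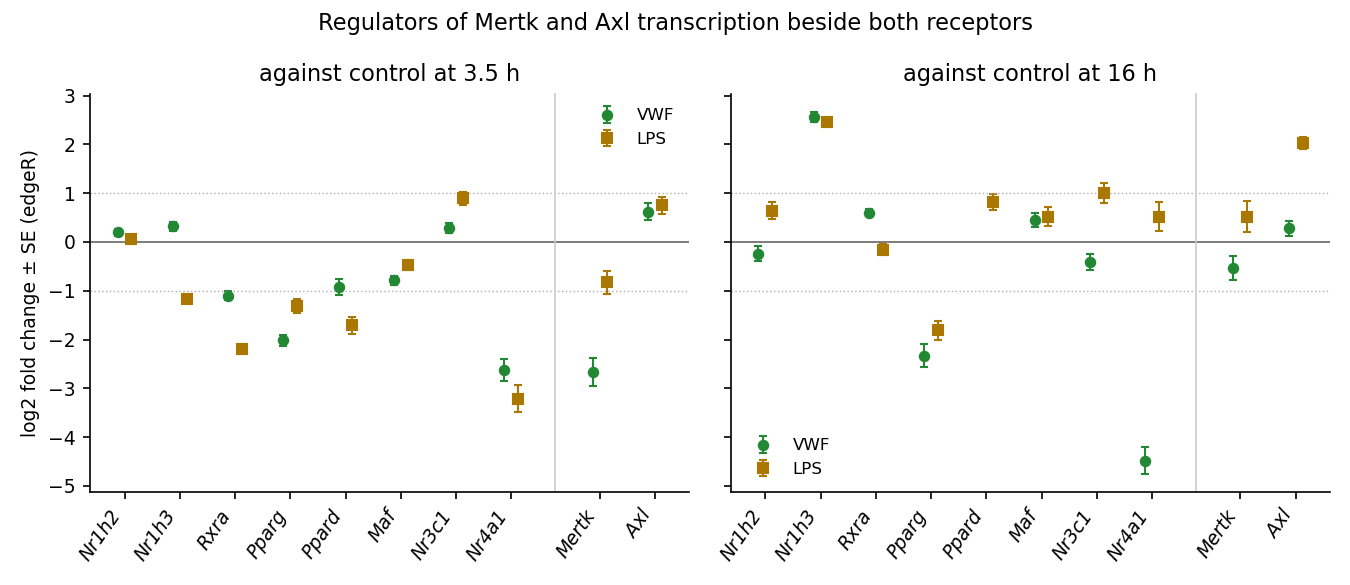
Log2 fold changes ± SE from edgeR against control at 3.5 h (left) and 16 h (right) for 8 of the 9 listed regulators, with Mertk and Axl at the right of each panel, VWF as circles, LPS as squares and dotted lines at the fold threshold. At 3.5 h Nr4a1 (-2.62 with VWF, -3.21 with LPS) lay below the lower line in both conditions, and Mertk with VWF only (-2.67). Ppard did not reach 10 TPM in the VWF comparison at 16 h, and Mertk with LPS at 16 h reverses under scaling by library totals.

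Of the signalling partners, 11 of 13 genes were tested at 3.5 h, and 5 rose and 1 fell with VWF (median 0.49). Socs3 and Socs1, inhibitors of cytokine receptor signalling that TAM receptors are known to induce, rose by 7.32 (SE 0.40) and 6.03 (SE 0.26). The interferon receptor gene Ifnar1 rose by 1.19 (SE 0.11). With LPS, 4 rose and 0 fell (median 0.25), with Socs1 at 8.63 (SE 0.19), Socs3 at 7.89 (SE 0.45) and Ifnar1 at 1.06 (SE 0.15). At 16 h the treatments differed: with VWF, 2 of 10 rose, among them Socs3 (2.65, SE 0.35), and the guanine exchange factor gene Vav3 fell (-1.26, SE 0.17). Socs1 was under the 10 TPM minimum in that comparison and was not tested. Its means were 5.61 ± 1.16 CPM in VWF and 1.04 ± 0.34 CPM in control cultures (SD). With LPS, 7 of 11 rose and 0 fell (median 1.25), among them Socs3 (7.03, SE 0.45), Socs1 (6.57, SE 0.29) and Ifnar2 (1.42, SE 0.30). Tested directly at 16 h, Socs3 (-4.33, SE 0.25) and Socs1 (-4.11, SE 0.18) were among the 3 of 11 called between VWF and LPS, all lower with VWF. Under scaling by library totals these interferon receptor calls fell short of the threshold, with Ifnar1 at 0.98 for VWF and 0.51 for LPS at 3.5 h and Ifnar2 at 0.85 for LPS at 16 h. Leaving out LPS replicate 3 at 3.5 h took Ifnar1 with LPS to 0.96.

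The list of ectodomain shedding holds the proteases Adam10 and Adam17, which release Axl and Mertk from the cell surface, the Adam17 cofactor Rhbdf2 and the inhibitor Timp3. With VWF at 3.5 h, 2 of 4 rose, Rhbdf2 by 1.30 (SE 0.09) and Adam17 by 1.10 (SE 0.11), and 0 fell. Scaling by library totals took Adam17 to 0.89, under the threshold. With LPS only Rhbdf2 was called, at 1.78 (SE 0.10) at 3.5 h and 1.87 (SE 0.09) at 16 h, and 0 of 3 were called with VWF at 16 h. In the list of gamma-carboxylation, the vitamin K-dependent step that makes Gas6 and protein S able to bind phosphatidylserine, 3 of 4 genes were tested. Vkorc1l1, a vitamin K epoxide reductase, fell with LPS at 3.5 h (-1.16, SE 0.09), and 0 of 3 were called with VWF at 3.5 h or with either treatment at 16 h.

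Other phosphatidylserine receptors and bridging proteins made a list of 20 genes, of which 15 were tested against control. With VWF at 3.5 h, 0 rose and 2 fell, Cd300lb (-3.63, SE 0.17) and the integrin gene Itgb3 (-1.09, SE 0.20). With LPS at that time, 0 rose and 4 fell, Cd300lb (-4.70, SE 0.19), Itgb3 (-1.74, SE 0.20), Stab1 (-1.46, SE 0.16) and Lrp1 (-1.14, SE 0.17). At 16 h, 2 rose and 3 fell with VWF, with Cd300lf at 2.47 (SE 0.31), the complement gene C1qa at 1.49 (SE 0.32), the scavenger receptor gene Cd36 at -1.13 (SE 0.12) and Lgals3 at -1.12 (SE 0.14). With LPS, 2 rose and 2 fell, Cd300lf (5.13, SE 0.26), Thbs1 (2.29, SE 0.35), Itgb5 (-1.59, SE 0.15) and Cd300lb (-1.50, SE 0.30). In the engulfment machinery, Abca1, a lipid exporter, was the 1 gene called with VWF at both times, at 1.24 (SE 0.17) of 7 tested at 3.5 h and 1.42 (SE 0.11) of 6 at 16 h. LPS called 0 of 7 at 3.5 h, and Elmo1, an activator of Rac, fell at 16 h (-1.06, SE 0.12), a call lost without LPS replicate 2 (-0.97).

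Over the 58 genes of these 6 lists, the share of tested genes called was 30.6% for VWF and 32.7% for LPS at 3.5 h, and 26.7% and 34% at 16 h. The share of all genes called in the same comparisons was 14.7%, 24.5%, 8.71% and 27.6%. Between VWF and LPS the list share was 13% at 3.5 h and 23.4% at 16 h, against 11.4% and 25.5% of all genes. From 3.5 h to 16 h it was 29.8% in VWF and 44.7% in LPS cultures, against 21.4% and 28.1% of all genes. The lists were chosen with earlier results of these data known, so these shares do not test the lists.

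Across the 28 cultures, the genes whose log2 CPM followed each member most closely were taken from those reaching 10 TPM in at least 1 culture. For Axl these were Slamf7, a leukocyte surface receptor (Pearson r = 0.95), the deubiquitinase gene Usp25 (0.94) and the MHC class I gene H2-Q5 (0.94), whose reads may be shared with its near-identical relatives. For Mertk they were AW549877 (0.91), Fam111a (0.89) and the peptidase gene Nln (0.87). Gas6 had the closest match of all members in Mrc1, the mannose receptor (0.99), then Slc9a9 (0.98) and Man1a (0.97). For Pros1 they were the amidating enzyme gene Pam (0.94), St8sia4 (0.92) and Fam107b (0.92), and for Tyro3 the growth factor gene Hbegf (0.89), Pikfyve (0.89) and Arhgap23 (0.88). Among the members, Gas6 and Pros1 gave r = 0.75, and Axl and Mertk gave -0.05. These coefficients describe 28 cultures that fall into 6 groups and share their treatments, and no p-value is attached to them.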

How the data were processed

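Total RNA of 28 BMDM cultures was sequenced as bulk RNA-seq. Per the labels, the submitters' processing notes name STAR and GRCm38 (mm10), and the authors deposited whole-number counts per gene, with no normalization or filter. How multi-mapped reads and strand were treated is not stated there or in the methods, so reads of Gas6 and of the gene overlapping it on the other strand cannot be told apart. Groups and replicate numbers came from the sample titles.

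Counts were analysed in R 4.3.3 with edgeR 4.0.16 (robust quasi-likelihood fit, TMM factors, only the groups compared, without a replicate block; the interactions used the 4 groups concerned). The paper's methods use DESeq2, here an alternative (version 1.42.0). TPM was computed from counts and GENCODE M21 exon lengths, and genes were tested at 10 TPM or more in at least 1 culture and called at an adjusted p under 0.05 and an absolute log2 fold change above 1. The fit was tested on simulated data. Levels are CPM, and ratios were compared by exact permutation in scipy 1.17.1. TMM factors were 0.735 to 0.848 in LPS, 0.971 to 1.12 in VWF and 0.945 to 1.18 in control libraries. Promoter windows are from RefSeq (GRCm38.p6).

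The members and gene lists were chosen with earlier results of these data known. Text names the members, at most 4 called genes per list and comparison with the largest fold changes, and per member the 3 genes with the highest correlation. Some listed genes enter the counts but are not reported here by name. No 2 cultures of a group agreed within sampling noise (lowest chi-square per degree of freedom 18.4). Replicate numbers paired the samples in 1 of 9 comparisons, VWF against LPS at 16 h, where the deviations of all 4 same-numbered pairs correlated at 0.16 to 0.781. At this depth Tyro3 alone rests on few counts. Alternatives were other normalizations, filters, DESeq2, a fit of all groups, the block, no fold threshold and leaving out cultures.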

Additional observations from a re-analysis of the deposited data

Results flagged for a closer look

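Outlying cultures were looked for in each group by the gap of the highest or lowest culture relative to the group's range. Of 42 tests 4 were positive, and chance gives about 1 in 20. Axl in control replicate 4 at 3.5 h was at 230 CPM, against 120 to 144 in the other control cultures. Tyro3 in VWF replicate 1 at 16 h was at 0.912 CPM, against 0.183 to 0.337. The ratio of Axl to Mertk TPM was 4.44 in VWF replicate 4 at 16 h, and 6.99 in LPS replicate 4 at 16 h. These last 2 cultures also had the lowest summed macrophage marker TPM of their groups.

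Effects that differed between the times, or between the treatments in their change with time, came from the edgeR interaction test at an adjusted p under 0.05. The VWF effect changed from 3.5 h to 16 h by 2.18 for Mertk and by -0.69 for Pros1. The LPS effect changed by 1.29 for Axl, 1.38 for Mertk, -2.20 for Tyro3, -2.21 for Gas6 and -1.63 for Pros1. The difference between VWF and LPS changed by -1.60 for Axl, 2.03 for Tyro3, 2.00 for Gas6 and 0.92 for Pros1. All are log2 values.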

How the results depend on the processing

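The count of members called in each of 12 comparisons did not move by over 1.5 times with DESeq2, with RLE factors, with 1 fit of all 6 groups, with the replicate block or when single cultures or the 3 cultures low in macrophage markers were left out. Without the fold threshold it was 3 for VWF and 4 for LPS at 3.5 h, 2 between these treatments, 2 for VWF against control at 16 h, 3, 4 and 4 for the change with time in control, VWF and LPS cultures, and 2 for the change of the VWF effect. Among all genes, 3576 of 8200, 5384 of 8190, 3768 of 7500 and 2163 of 7798 passed in the first 4 of these. For the change with time 3429 of 8333, 5379 of 7927 and 4257 of 6987 passed, and for the change of the VWF effect 2819 of 8660. Tyro3 entered with the filterByExpr rule and without a filter, which gave 1 for LPS against control and 2 for VWF against LPS at 3.5 h, and 4 for VWF with time. Scaling by library totals called 1 member, Mertk (-1.38), for LPS against control at 3.5 h. That scaling moved the median of all genes by -0.59 to 0.46 over the comparisons.

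Estimates that reversed were ones not called in the first place. Scaling by library totals gave -0.16 for Pros1 with LPS at 3.5 h, 0.20 for Axl and 0.18 for Gas6 in VWF against LPS at 3.5 h, -0.05 for Mertk with LPS at 16 h and 0.07 for Tyro3 in VWF against LPS at 16 h. Pros1 with VWF at 3.5 h was 0.01 with filterByExpr, 0.01 without a filter and -0.08 to 0.02 as single cultures were left out. Axl in VWF against LPS at 3.5 h ran from -0.21 to 0.00 in that way. Tyro3 with LPS at 16 h ran from -0.64 to 0.17, positive without control replicate 4 or LPS replicate 4, and was 0.06 without the 3 cultures. Tyro3 in VWF against LPS at 16 h ran from -0.91 to 0.14, and its change of the VWF effect from -0.74 to 0.13. The causes were not tested.

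With the replicate block, Mertk in VWF against LPS at 16 h was -0.96 and no other member's call changed. In the other 8 comparisons the same-numbered pairs did not all correlate above 0.1. Among called list genes, the block ended the calls of Nr3c1 for LPS against control at 16 h (0.87), Rhbdf2 for VWF against LPS at 16 h (-0.99), Timp3 in control cultures with time (-2.41) and C1qa in the change of the VWF effect (1.19).

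Leaving out single cultures moved the log2 Axl to Mertk ratio between 1.48 and 1.63 for LPS and between 1.59 and 1.87 for VWF against LPS at 3.5 h, and at 16 h between 0.53 and 0.92 for VWF, 1.23 and 1.66 for LPS, and -0.97 and -0.47 for VWF against LPS. The Gas6 to Pros1 ratio lay between -0.51 and -0.34 for VWF, -0.77 and -0.64 for LPS, and 0.19 and 0.36 for VWF against LPS at 3.5 h, and between -1.34 and -1.23 for LPS and 1.3 and 1.41 for VWF against LPS at 16 h. Without the 3 cultures, the ratios for LPS against control at 16 h were 1.39 and -1.26, and the Gas6 to Pros1 ratio for VWF against LPS was 1.33. For LPS comparisons, fewer cultures raise the smallest exact p, to 0.0357 with 5 against 3 and 0.0571 with 4 against 3. For the Gas6 to Pros1 ratio with VWF at 3.5 h the cause was not tested. Depth limits Tyro3, with 9 to 193 counts per culture.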

Other observations

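The effects of VWF and of LPS on other genes of the pathway also changed between 3.5 h and 16 h. Among the listed regulators, the LPS effect changed upward for 6 of 9 and downward for 0, among them Nr4a1 (3.73, SE 0.41), Nr1h3 (3.64, SE 0.15), Ppard (2.54, SE 0.25) and Rxra (2.05, SE 0.15). The VWF effect changed upward for 4 of 9, among them Nr1h3 (2.27, SE 0.13) and Rxra (1.74, SE 0.12), and downward for Nr4a1 (-1.82, SE 0.34). Nr4a1 therefore had interactions of opposite sign with the 2 treatments, and had at most 42 counts per culture with VWF at 16 h. Of 16 other phosphatidylserine receptors and bridges tested, 5 had a VWF effect that changed upward and 0 downward, with Cd300lf at 4.18 (SE 0.38) and Cd300lb at 2.65 (SE 0.30). With LPS, 4 changed upward, among them Cd300lf (7.44, SE 0.30), Cd300lb (3.22, SE 0.36) and Thbs1 (2.63, SE 0.62), and 2 downward, including Anxa1 (-1.83, SE 0.11). All are log2 values from the edgeR interaction test. Of all genes tested, 26.3% were called in the LPS interaction and 13.5% in the VWF interaction. Tested directly, the difference between VWF and LPS changed with time for Nr4a1 (-5.57, SE 0.31), Nr1h3 (-1.39, SE 0.13), Ppard (-1.94, SE 0.23), Cd300lf (-3.28, SE 0.44) and Thbs1 (-3.23, SE 0.69), and neither Rxra nor Cd300lb was called in that test.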
